A study of Mus musculus with 6 samples.

Results

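Mature products of the miR-126a, miR-139 and miR-218 hairpins, microRNAs associated with blood vessels, were followed in the livers of soy-fed and control mice. The rule took 5 names out of the 1907 mature microRNAs of the deposited read-count table, mmu-miR-126a-5p, mmu-miR-126a-3p, mmu-miR-139-5p, mmu-miR-139-3p and mmu-miR-218-5p (mmu stands for mouse and is left out from here on). The series holds 6 liver small RNA libraries, each from 1 male mouse, 12 weeks old by the labels and of mixed background. The soy group, 3 mice, ate for 4 weeks a granulated chow of 75% regular food and 25% soy bean powder, and the regular group, 3 mice, ate 100% regular granulated chow over the same period. The question of the study was whether the soy diet alters liver microRNAs. A member entered the test between the diets when it had at least 4 reads in at least 3 libraries. This held for 4 of the 5 members and for 437 microRNAs in all, and miR-218-5p fell below it.

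MicroRNAs are cut from a hairpin precursor, whose 5p and 3p arms can each be loaded into an Argonaute protein and then repress messenger RNAs that pair with bases 2 to 8 of the microRNA, the seed. miR-126 is the best known microRNA of endothelial cells, the lining of vessels and of the liver sinusoids. In mice its 3p arm lowers Spred1 and Pik3r2, brakes on growth factor signalling, and its 5p arm lowers Dlk1, an inhibitor of Notch signalling. miR-139 and miR-218 are less tied to the endothelium. miR-218 is abundant in motor neurons and is made from the genes for the guidance ligands Slit2 and Slit3, and in human cells it acts on their receptor ROBO1.

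RefSeq gave mature sequences for 4 of the 5 names. They are printed to show the seeds, in capitals, which differ between all 4 members.
miR-126a-3p: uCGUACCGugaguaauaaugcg
miR-139-5p: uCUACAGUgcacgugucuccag
miR-139-3p: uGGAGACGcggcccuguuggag
miR-218-5p: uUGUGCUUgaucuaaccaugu
Among 1679 mature mouse microRNAs in the RefSeq table, none shared the seed of miR-126a-3p, miR-139-5p or miR-139-3p. The seed of miR-218-5p was shared by 1 other, miR-7002-3p, which had no read in any library. The G and C content of these sequences ranged from 38.1% in miR-218-5p to 68.2% in miR-139-3p, with 45.5% in miR-126a-3p and 54.5% in miR-139-5p.

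The hairpins shared a genomic setting that the rule did not use, each lying on the coding strand of a longer gene. Positions follow GRCm38 with GENCODE M21, which the authors may not have used. Mir126a lies at chr2:26591357-26591429 on the plus strand within Egfl7, a gene for a protein secreted by endothelial cells. It was intronic in 8 of the 9 Egfl7 transcripts that span it and exonic in 1, a retained intron transcript. Mir139 lies at chr7:101475376-101475443 on the plus strand, intronic in all 10 spanning transcripts of Pde2a, which encodes a phosphodiesterase of cyclic nucleotides. Mir218-1, at chr5:48223942-48224051 in an intron of Slit2, and Mir218-2, at chr11:35616816-35616925 in an intron of Slit3, give the same mature miR-218-5p, so its reads cannot be assigned to either locus. The hairpins with 2 counted arms are printed next, since the ratio of arms is compared further on, with RefSeq's listed mature arms in capitals (GRCm38.p6, plus strand).
Mir126a: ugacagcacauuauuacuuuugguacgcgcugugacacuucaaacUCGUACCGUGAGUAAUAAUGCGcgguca
Mir139: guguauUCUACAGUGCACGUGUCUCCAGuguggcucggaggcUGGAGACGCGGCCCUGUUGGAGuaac
Mir126b, a hairpin of 58 bases at chr2:26591363-26591420, is the exact reverse complement of part of Mir126a on the minus strand, and its 5p arm covers 19 of the bases of miR-126a-3p. miR-126b-5p had no read, and miR-126b-3p had 11 reads in soy replicate 3 and 0 in the remaining libraries. Reads of the opposite strand were thus few beside those of miR-126a.

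The libraries held 10032094 to 12762916 microRNA reads in the soy group and 5727546 to 10325712 in the regular group, of which regular replicate 3 was the shallowest. Markers of the labelled tissue were present. Hepatocyte microRNAs (miR-122, miR-192, miR-194 and miR-148a arms) summed to 286783 to 335097 CPM (counts per 1000000 reads, relative to library sizes scaled by the TMM method of edgeR) in soy-fed mice and 267508 to 351062 CPM in regular-fed mice. Neural and muscle microRNAs summed to 3.42 to 12.0 CPM in soy-fed mice and 4.90 to 8.64 CPM in regular-fed mice, with miR-124-3p and miR-206-3p at 0 reads.

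miR-126a dominated the set under both diets. The 5 members together took 2.01% to 2.08% of the reads in soy-fed mice and 1.59% to 1.74% in regular libraries, and miR-126a arms made up 99.2% to 99.6% of the member reads in every library. The order of levels was the same throughout, and no neighbouring ranges met. miR-126a-5p ranged from 13035 to 19132 CPM over the 6 libraries, miR-126a-3p from 1447 to 1961 CPM, miR-139-5p from 60.5 to 111 CPM, miR-139-3p from 2.70 to 9.60 CPM and miR-218-5p from 0 to 0.976 CPM. The mature RNAs differ little in length, but whether reads follow the amounts of each RNA was not tested.

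**Figure D1:**
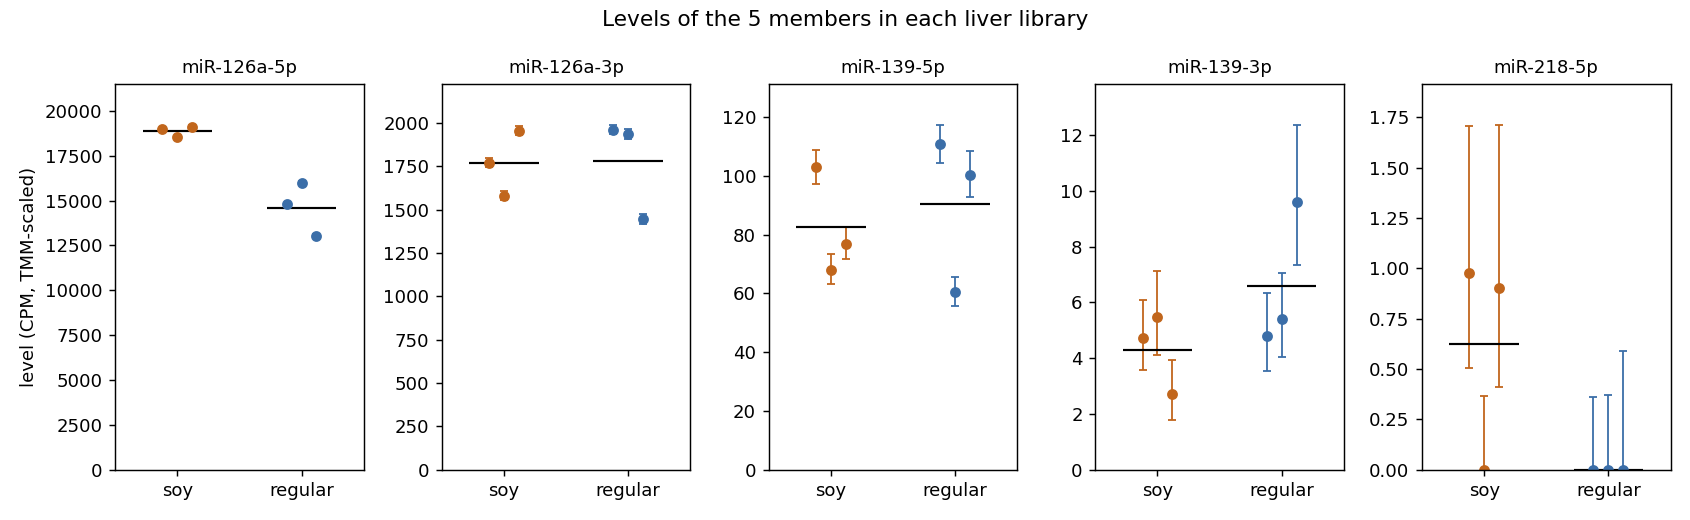
Levels in CPM on linear axes that start at 0, 1 panel a member, for 3 soy and 3 regular libraries. Points are libraries with 95% Poisson counting intervals and bars are group means. The soy points of miR-126a-5p lie between 18536 and 19132 CPM, above the 3 regular points, whereas the groups overlap for miR-126a-3p, miR-139-5p and miR-139-3p, and miR-218-5p has reads in 2 soy libraries.

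miR-126a-5p was at a higher level in every soy liver than in any regular liver, but did not pass the test over all microRNAs. It had 233394, 186293 and 191013 reads in the soy libraries, against 151525, 160111 and 81459 reads in the regular libraries. After scaling these were 18983, 18536 and 19132 CPM in soy-fed mice, and 14811, 16001 and 13035 CPM in regular-fed mice. The soy livers lay close together and the regular livers were more spread, with group levels of 18884 ± 310.3 CPM and 14616 ± 1493 CPM (SD, n = 3 each), a ratio of 1.29. The log2 fold change was 0.37 ± 0.13 (SE), with a 95% interval of 0.07 to 0.67 that is not adjusted for the number of microRNAs. By edgeR's quasi-likelihood test the unadjusted p was 0.0204 and the adjusted p 0.728. Without scaling factors, as a plain share of library reads, it took 1.83% to 1.88% in soy-fed mice and 1.42% to 1.55% in regular libraries. The exact binomial interval of the highest regular share, in regular replicate 2, was 1.543% to 1.558%, and that of the lowest soy share, in soy replicate 1, was 1.821% to 1.836% (95%, counting error only).

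These values are read against the whole table. edgeR called 0 of the 437 microRNAs tested (0%), and thus 0 of the 4 members tested, with 22 (5.03%) at an unadjusted p under 0.05, of which miR-126a-5p was the 1 member. limma-voom called 0 (0%). DESeq2 called 2 (0.458%), neither a member and both with lower values in soy, named here after their values were seen. They were miR-145a-5p (log2 fold change of -0.96 and adjusted p = 0.00952 in DESeq2) and miR-455-3p (-1.97 and 0.00458), the second at 20.2 ± 7.43 CPM in soy-fed mice and 79.7 ± 37.0 CPM in regular-fed mice (SD, n = 3 each). Every direction given here rests on the diet in the library labels, for which no marker of the diet was at hand. The paper prints a positive log2 fold change for each of the DESeq2 calls, opposite in sign to the values above. It also measured both by qRT-PCR and prints fold changes that are increases. Whether the labels or the order of the comparison differ between the sources was not tested. Exchanged labels would turn every direction given here. The CPM ranges of the diets did not overlap for 56 microRNAs (12.8%), 32 of them higher in soy (7.32%), and for 1 of the 4 members tested. The median log2 fold change was -0.02 over all microRNAs tested. miR-126a-5p ranked 12th of 437 by p and had the third smallest standard error, as an abundant microRNA that ranked 10th to 13th by reads in soy libraries and 13th or 14th in regular libraries. In bulk liver, more cells of a type and more of an RNA in each cell cannot be told apart.

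Markers of other liver cells were examined beside the miR-126a-5p difference. The leukocyte list, 6 microRNAs with none at 0 throughout, summed to 2706 to 3550 CPM in soy-fed mice and 2066 to 2368 CPM in regular-fed mice, so its ranges did not overlap either. Its values were higher in soy for 5 of 6 members, edgeR called 0 of them, and 2 had an unadjusted p under 0.05, with a median log2 fold change of 0.54. miR-146a-5p, the most abundant of the list, overlapped at 1542, 1261 and 1546 CPM in soy-fed mice and 1333, 996.9 and 1310.4 CPM in regular-fed mice. miR-142a-5p of blood cells stood at 1225, 1215 and 1710 CPM in soy-fed mice and 692.1, 1165 and 603.6 CPM in regular-fed mice. Its other arm on the list, miR-142a-3p, overlapped at 21.2, 40.5 and 76.6 CPM in soy-fed mice and 24.7, 67.1 and 53.4 CPM in regular-fed mice. miR-150-5p of mature lymphocytes stood at 114, 152 and 163 CPM in soy-fed mice and 68.5, 101 and 67.5 CPM in regular-fed mice. The bile duct and epithelial list summed to 253.6 to 296.8 CPM in soy-fed mice and 208 to 239.9 CPM in regular-fed mice, but its members were mixed. Of 5 tested, 3 had a higher and 2 a lower value in soy, edgeR called 0, and the median log2 fold change was 0.05. The diets did not overlap for 2 of the 5 (40%), miR-429-3p and miR-141-3p, against the same 12.8% of all microRNAs. miR-141-3p stood at 89.2 ± 21.5 CPM in soy-fed mice and 49.3 ± 4.99 CPM in regular-fed mice (log2 fold change 0.86 ± 0.24, SE). In contrast, miR-200b-3p had a log2 fold change of -0.03 ± 0.22 (SE). The part of these lists in the miR-126a-5p values was not tested. The summed hepatocyte, mesenchymal, and erythroid and platelet lists overlapped between the diets, the last at 1406 to 1435 CPM in soy-fed mice and 793.8 to 1900.4 CPM in regular-fed mice. Of the 5 hepatocyte microRNAs tested, 2 had a higher and 3 a lower value in soy. edgeR called 0 of them, and 1 had an unadjusted p under 0.05. This was miR-148a-3p, which overlapped at 70056 ± 5030 CPM in soy-fed mice and 94755 ± 17731 CPM in regular-fed mice (SD, n = 3 each). Its log2 fold change was -0.44 ± 0.15 (SE), with an unadjusted p of 0.0185 and an adjusted p of 0.728 in edgeR. Most of the hepatocyte sum was miR-192-5p. It stood at 208976 ± 24549 CPM in soy-fed mice and 194122 ± 31734 CPM in regular-fed mice (SD, n = 3 each). miR-122-5p overlapped at 22450, 16590 and 16436 CPM in soy-fed mice and 19605, 26241 and 25899 CPM in regular-fed mice. Of the 6 mesenchymal microRNAs tested, 3 had a higher and 3 a lower value in soy, and edgeR called 0. Most of their sum was miR-143-3p, at 21887 ± 3206 CPM in soy-fed mice and 18674 ± 4164 CPM in regular-fed mice (SD, n = 3 each). miR-145a-5p of smooth muscle did not overlap, at 45.2, 48.7 and 55.0 CPM in soy-fed mice and 99.4, 84.2 and 106 CPM in regular-fed mice. Its log2 fold change was -0.96 ± 0.22 (SE), with an unadjusted p of 0.00135 and an adjusted p of 0.295 in edgeR. Of the 5 erythroid and platelet microRNAs tested, 3 had a higher and 2 a lower value in soy, and edgeR called 0. Their median log2 fold change was 0.12, and miR-451a, the most abundant, was at 0.12 ± 0.28 (SE). Of this list miR-486b-5p did not overlap, at 7.42 ± 1.35 CPM in soy-fed mice and 11.9 ± 3.32 CPM in regular-fed mice (SD, n = 3 each). Its reads may be shared with its near copy miR-486a-5p. The share whose diets did not overlap was thus 16.7% in the mesenchymal and 20% in the erythroid and platelet list. It was 0% in the hepatocyte list, against 12.8% over all microRNAs tested.

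The other arm of the same hairpin did not show this separation. miR-126a-3p had 21780, 15879 and 19528 reads in soy-fed mice and 20060, 19360 and 9044 reads in regular libraries. These were 1771, 1580 and 1956 CPM in soy-fed mice, and 1961, 1935 and 1447 CPM in regular-fed mice. The lowest and the highest of the 6 values belonged to the regular group, so the soy range lay inside the regular range. Group levels were 1769 ± 188 CPM in soy-fed mice and 1781 ± 289.3 CPM in regular-fed mice (SD, n = 3 each), a log2 fold change of -0.01 ± 0.18 (SE) with a 95% interval of -0.41 to 0.39 (adjusted p = 0.982 in edgeR). The interval thus still holds the fold change measured for the 5p arm. The sign turned under 5 of 14 alternatives.

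**Figure D2:**
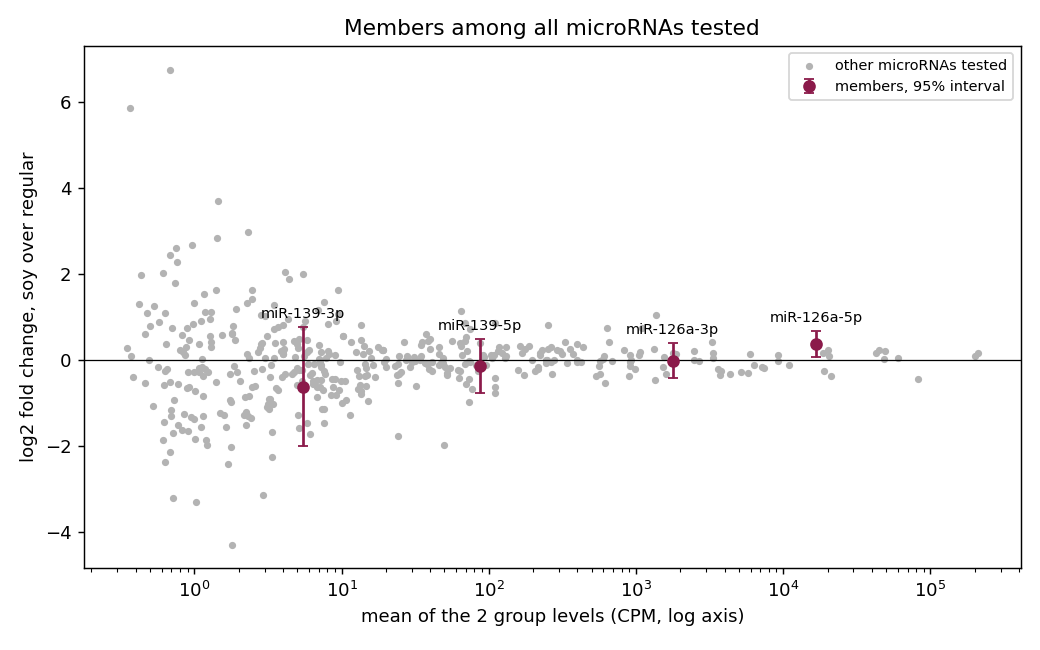
Log2 fold change of soy over regular against mean level in CPM (log axis) for the 437 microRNAs tested, with the 4 members tested drawn with 95% intervals. The interval of miR-126a-5p, 0.07 to 0.67, lies above 0, those of the other 3 members span 0, and the spread of all microRNAs widens towards low levels.

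The ratio of the miR-126a arms leaned further to 5p in every soy library. 5p reads outnumbered 3p reads by 10.7, 11.7 and 9.78 times in soy-fed mice, and by 7.55, 8.27 and 9.01 times in regular libraries. As a share of the reads of both arms, 5p took 91.5%, 92.1% and 90.7% in soy-fed mice, against 88.3%, 89.2% and 90.01% in regular libraries. The nearest pair, soy replicate 3 and regular replicate 3, had exact binomial intervals of 90.6% to 90.85% and 89.8% to 90.2% (95%), which do not meet. With reads taken as independent, counting error is thus smaller than the gap. The mean share was 91.4% ± 0.711 in soy-fed mice and 89.2% ± 0.85 in regular libraries (SD, n = 3 each), a difference of 2.27 percentage points (exact permutation p = 0.1, two-sided). With 3 mice against 3 that is the smallest p the test allows.

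The ratio was then set against all hairpins, since it is taken within a library and library scaling cancels. On the scale of log2((5p + 1)/(3p + 1)), miR-126a was at 3.42 ± 0.13 in soy-fed mice and 3.05 ± 0.13 in regular libraries (SD, n = 3 each). The difference of 0.38 ± 0.28 (SE) had a 95% interval of -0.33 to 1.08 by limma, fitted to the 118 hairpins whose 2 arms both entered the tests, and did not pass (adjusted p = 0.819). The standard error borrows from the spread of all hairpins. With a prior that follows abundance it was 0.15 and the adjusted p 0.584. limma called 0 of the 118 hairpins (0%), and 6 (5.08%) had an unadjusted p under 0.05, with no member hairpin among them. Ratios did not overlap between the diets for 12 hairpins (10.2%), 6 of them higher in soy (5.08%). miR-126a was thus 1 of 6 such hairpins and ranked 32nd of 118 by p.

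**Figure D3:**
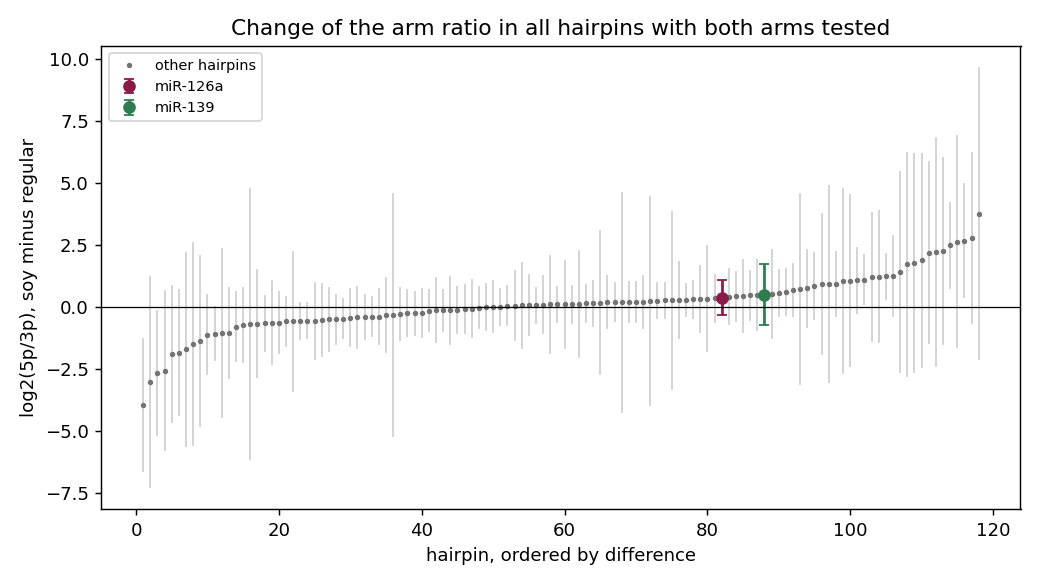
Difference in log2(5p/3p) between soy and regular for each of the 118 hairpins with both arms tested, in order of size, with 95% intervals from limma. miR-126a at 0.38 and miR-139 at 0.50 lie on the positive side and the intervals of both span 0.

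miR-139 was present at far lower levels, and neither arm separated the diets. miR-139-5p, the main arm, had 1267, 685 and 769 reads in soy-fed mice and 1133, 605 and 628 in regular libraries. These were 103, 68.2 and 77.0 CPM in soy-fed mice, and 111, 60.5 and 100 CPM in regular-fed mice. Both groups held a liver above 100 CPM and a liver below 70 CPM, so the spread within each diet covered the difference between them. The log2 fold change was -0.13 ± 0.28 (SE), with a 95% interval of -0.76 to 0.50 (adjusted p = 0.982 in edgeR), and was 0.13 without regular replicate 1.

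miR-139-3p, the minor arm, had 58, 55 and 27 reads in soy-fed mice and 49, 54 and 60 reads in regular libraries. Its levels of 4.72, 5.47 and 2.70 CPM in soy-fed mice overlapped the 4.79, 5.40 and 9.60 CPM in regular-fed mice. The regular mean rested on regular replicate 3, the shallowest library, where the 95% Poisson interval of the level was 7.33 to 12.4 CPM. The log2 fold change was -0.61 ± 0.62 (SE), with a 95% interval of -1.99 to 0.76 (adjusted p = 0.982 in edgeR), and was -0.22 without that library.

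The arm ratio of miR-139, which rests on far fewer reads, spread more between mice than that of miR-126a. 5p took 95.6%, 92.6% and 96.6% of the reads of both arms in soy-fed mice, and 95.9%, 91.8% and 91.3% in regular libraries. Livers of both diets thus stood near 92% and near 96%. The log2 ratio was 4.27 ± 0.60 in soy-fed mice and 3.78 ± 0.63 in regular libraries (SD, n = 3 each), a difference of 0.50 ± 0.50 (SE) with a 95% interval of -0.74 to 1.74 (limma adjusted p = 0.819; exact permutation p = 0.3). It ranged from 0.24 to 0.86 with single libraries left out, at 0.86 without regular replicate 1, 0.83 without soy replicate 2 and 0.24 without soy replicate 3. Over 3 exact tests, the Benjamini-Hochberg values were 0.15 for the ratio and the share of miR-126a and 0.3 for the ratio of miR-139. The share of miR-139 was not among them. The ratio and the share of miR-126a restate the same reads, so they are not separate tests. Counting them as 2 made the value of 0.15 smaller than counting them as 1 would.

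**Figure D4:**
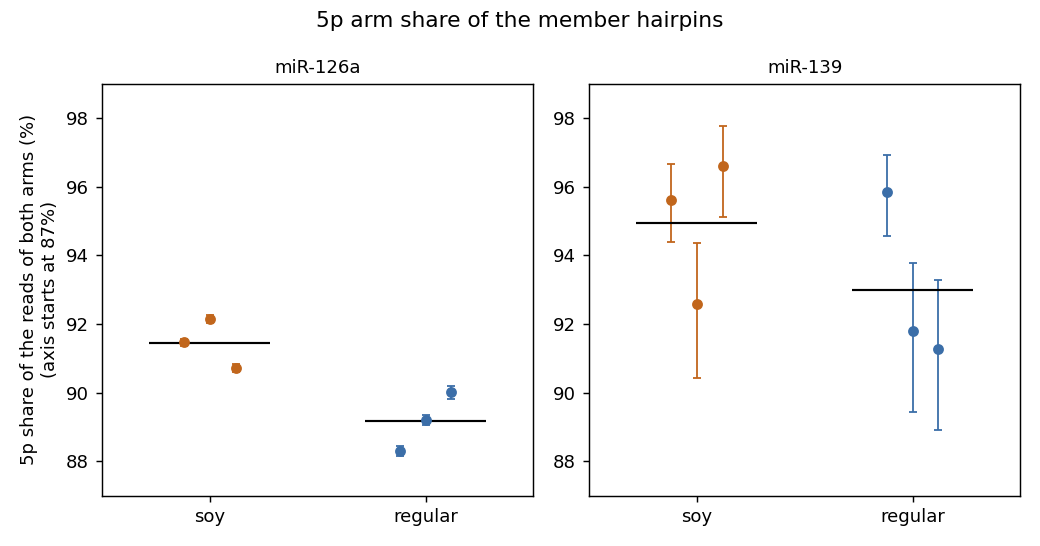
Share of the reads of both arms that came from the 5p arm, in percent on an axis that starts at 87%, for miR-126a and miR-139 in 3 soy and 3 regular libraries. Points carry 95% exact binomial intervals and bars are means. Soy libraries of miR-126a lie at 90.7% to 92.1%, above the regular ones, whereas the diets overlap for miR-139.

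miR-218-5p was close to the limit of detection. It had 12, 0 and 9 reads in the soy libraries, and 0 reads in each regular library, or 0.976, 0 and 0.901 CPM in soy-fed mice. The Poisson intervals of these levels were 0.504 to 1.70 CPM for soy replicate 1 and 0.412 to 1.71 CPM for soy replicate 3. A count of 0 allows up to 0.298 CPM in soy replicate 2, and up to 0.293, 0.300 and 0.480 CPM in regular replicates 1, 2 and 3 (3 reads on the TMM-scaled total of the library). The two-sided intervals drawn in the plot of levels reach higher at a count of 0, to 0.367 CPM in soy replicate 2 and to 0.361, 0.369 and 0.590 CPM in the regular replicates. Soy replicate 2 was thus like the regular libraries, the groups overlapped at 0, and miR-218-5p did not enter the main test. The alternative without a filter on low counts included miR-218-5p and did not call it. The opposite arms, miR-218-1-3p and miR-218-2-3p, had no read in any library.

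Other microRNAs known from the vessel wall were counted beside the members. Of 24 on the list, 21 had a read and 19 were tested, 14 with a higher and 5 with a lower value in soy, where 212 of all 437 microRNAs tested had a higher value. edgeR called 0 of them and 0 had an unadjusted p under 0.05, and the median log2 fold change was 0.10 against -0.02 over all microRNAs. The most abundant were miR-10a-5p, at 48299 ± 8297 CPM in soy-fed mice and 40809 ± 3730 CPM in regular-fed mice, and miR-27b-3p, at 21231 ± 816 CPM in soy-fed mice and 19942 ± 1673 CPM in regular-fed mice (SD, n = 3 each). miR-27a-3p, of the miR-23a cluster and expressed in endothelium among other cells, had the smallest p of the list (0.117, adjusted p = 0.982 in edgeR). It stood at 476, 454.4 and 522.5 CPM in soy-fed mice and 433.3, 390.7 and 354.3 CPM in regular-fed mice, a log2 fold change of 0.30 ± 0.18 (SE), and its diets did not overlap. The same held, with lower values in soy, for miR-92a-3p of the miR-17-92 cluster, at 6955 ± 495.3 CPM in soy-fed mice and 7824 ± 336.6 CPM in regular-fed mice (SD, n = 3 each). Diets thus did not overlap for 2 of the 19 (10.5%), against the 12.8% of all microRNAs given above.

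Likeness to each member was measured as the root mean square difference of log2 CPM, centred on each microRNA's mean, over the 6 libraries. This is a description of profiles that share libraries and depth. For miR-126a-5p the nearest of all tested microRNAs was the same miR-27a-3p at 0.10, then miR-93-5p at 0.11 and miR-24-2-5p at 0.12, against a median of 0.63 over all. miR-93-5p, of the miR-106b cluster, stood at 753.9 ± 84.8 CPM in soy-fed mice and 559.5 ± 18.5 CPM in regular-fed mice (SD, n = 3 each). For miR-126a-3p the nearest were miR-30a-5p at 0.08, miR-23b-3p at 0.09 and miR-30b-5p at 0.09, with log2 fold changes of 0.03, 0.01 and 0.01. The arms of miR-126a were thus not among each other's 3 nearest. For miR-139-5p the nearest was miR-342-3p at 0.15, followed by miR-185-5p at 0.20 and miR-330-3p at 0.21, and for miR-139-3p it was miR-744-5p at 0.25, followed by miR-450b-5p at 0.26 and miR-29c-5p at 0.27.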

How the data were processed

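Liver RNA of 6 mice was made into TruSeq small RNA libraries and sequenced from 1 end on a NextSeq instrument. The deposited count table holds whole reads per mature microRNA, without normalization. The authors' aligner, miRBase release and genome build were not given in the sources used here, and reads that fit more than 1 mature sequence may be lost or moved. The deposited log2 values were scaled and log2-transformed by the authors, with none where the count was below 4 (0 mismatches). The study's methods name DESeq2 scaling for them, but the library factors equalled ratios of library totals (counts below 4 left out) with a largest deviation of 8.9e-16. They served as an alternative. 0 sample columns were left unused.

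The 437 microRNAs that reached 4 reads in 3 or more libraries were tested by edgeR 4.0.16 (quasi-likelihood, TMM scaling, R 4.3.3), with Benjamini-Hochberg adjustment at 0.05 over all of them and no covariate. CPM use TMM-scaled totals. The study names DESeq2, which was run as an alternative (1.42.0), as were limma-voom (limma 3.58.1), other scalings and filters, and leaving out each library. Arm ratios, with 1 read added to each arm, were fitted by limma over 118 hairpins. Single values were compared by exact permutation over the 20 assignments of libraries (scipy 1.17.1). Counting intervals take reads as independent and cover no other error. No molecular identifiers were used, so copies of 1 molecule count as separate reads and these intervals may be too narrow. Libraries of a group differed by a chi-square of at least 253 per degree of freedom, so none looked deposited again. The steps were tested on simulated data. The members and lists were chosen with earlier results of these data known. Named are the members, the arms of their hairpins and of the antisense one, microRNAs that share a seed, the 2 most abundant and the smallest p of the vascular list, and the 3 profiles nearest each member. Members of the cell type lists, the 2 DESeq2 calls, miR-92a-3p and miR-10b-5p were named after their values were seen.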

Additional observations from a re-analysis of the deposited data

How the results depend on the processing

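No member was called under any of the 14 alternatives to the diet test, and miR-126a-5p kept its direction in all of them, with log2 fold changes of 0.31 to 0.46 and adjusted p of 0.296 to 0.996. The lowest p came from the stricter filter of at least 10 reads in every library, which left 283 microRNAs. miR-139-3p also kept its direction, at -0.82 to -0.22. The sign of miR-126a-3p turned to 0.070 without a filter on low counts and to 0.017 with the stricter filter, and ranged from -0.12 to 0.14 with single libraries left out. miR-139-5p ranged from -0.35 to 0.13 with libraries left out. Over the whole table, DESeq2 called 2 microRNAs and edgeR without a filter called 8 in place of 0, and the cause was not tested. Those called without a filter include miR-142a-5p and miR-150-5p of the leukocyte list and miR-10b-5p of the vascular list. The arm ratio of miR-126a kept its direction under 12 alternatives (0.31 to 0.44) and that of miR-139 under 12 (0.24 to 0.86), with 0 hairpins called in each. The difference in the 5p share of miR-126a was 1.84 to 2.68 percentage points with single libraries left out. The mean soy level of miR-218-5p, in CPM, was 0.451 to 0.939 with soy libraries left out.

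The replicate numbers of the labels are shared between the diets, but nothing pairs the mice. Deviations of libraries with the same number correlated at -0.107 to 0.009, and no soy library correlated best with its own number. With the replicate number as a block, edgeR called 5 microRNAs, none a member, and miR-126a-5p was at 0.37 with adjusted p = 0.534.

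Depth limits miR-139-3p, at 27 to 60 reads a library, and miR-218-5p, at 0 to 12.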
